A study of Mus musculus with 6 samples.

Results

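Prostaglandin synthesis and receptor genes were followed in cultured mouse tail fibroblasts in which lysyl hydroxylase 2 (LH2, encoded by Plod2) can be deleted. The 10 genes were taken by name: the cyclooxygenases Ptgs1 and Ptgs2, the terminal synthases Ptges, Ptgis and Ptgds, the degrading enzyme Hpgd, and the receptors Ptger2, Ptger3, Ptger4 and Ptgfr. They had 15 of the 56605 non-control probes on the array, and are 10 of the 45616 genes those probes represent. A gene entered the test if its brightest probe cleared background on both arrays of some group, and 6 of the 10 did.

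The study compared 3 groups with 2 arrays each. LH2 cKO_no.1 cells had 24 h of tamoxifen and were in tamoxifen (+) medium. LH2 cKO_no.2 cells had 24 h of tamoxifen and were in tamoxifen (-) medium. Control cells were in tamoxifen (-) medium and had no tamoxifen. All groups, control included, were tail tissue fibroblasts of C57BL/6 mice with LH2F/F and CAG-Cre, and all carry the genotype label LH2 cKO. CAG is a ubiquitous promoter, so Cre is not limited to 1 cell type. Tamoxifen was never given to cells with LH2 intact. Against control, the drug, time in culture and the deletion therefore cannot be told apart. The deposited file names carry 0 h for control, and 24 h for replicate 1 and 48 h for replicate 2 of no.1 and no.2, where the labels state 24 h for both. Nothing in the labels ties the arrays of a group to different cultures. P-values therefore reflect only how far these arrays differ, which may be technical.

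Prostaglandins are lipid signals made from arachidonic acid, which phospholipases free from membranes. Cyclooxygenase turns it into prostaglandin H2, and terminal synthases turn that into prostaglandin E2 (Ptges), prostacyclin (Ptgis) or prostaglandin D2 (Ptgds). Hpgd, 15-hydroxyprostaglandin dehydrogenase, starts their breakdown. The products act on G protein-coupled receptors, among them EP2, EP3 and EP4 (Ptger2, Ptger3, Ptger4) for prostaglandin E2 and FP (Ptgfr) for prostaglandin F2 alpha. Fibroblasts are a source of prostaglandin E2 in wounded and inflamed tissue, where Ptgs2 is the inducible cyclooxygenase.

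Values below are relative signals, the processed signal of a probe divided by the 75th percentile of its array. That percentile was 95.9 and 85.1 in no.1, 55.1 and 56.9 in no.2, and 34.2 and 33.7 in control. Plod2, the targeted gene, read 0.331 and 0.201 in no.1, 0.242 and 0.151 in no.2, and 1.23 and 1.04 in control, and was lower in both (limma log2 fold change -2.13, adjusted p = 0.00613, and -2.57, adjusted p = 0.00767). The sources used here do not place its probe relative to the deleted part, so this is no check of the deletion. The control arrays lay closer together (robust SD of their difference 0.174 on the log2 scale) than the no.1 arrays (0.417) or the no.2 arrays (0.485). The fibroblast genes Col1a1, Col1a2, Col3a1, Dcn, Thy1, Pdgfra and Pdgfrb were well above background on all 6 arrays, and Lum on none. Their sum, with Lum, was 598 and 655 in no.1, 865 and 967 in no.2, and 1104 and 1152 in control, and 4 of the 7 were lower in no.1 (Dcn, Thy1, Pdgfra and Pdgfrb) and 3 in no.2 (Dcn, Thy1 and Pdgfra). With spike-in scaling 2 were higher and 1 lower in no.1, and 2 higher and 0 lower in no.2. Leukocyte markers summed to relative signals of 28.8 and 32.8 in no.1, 36.8 and 30.0 in no.2, and 49.0 and 45.9 in control. Of the 8 in that list, Ptprc, Adgre1, Lyz2 and Fcgr1 were not above background on any array, and of the 4 tested Csf1r was lower in both (log2 fold change -2.40, adjusted p = 0.00723 in no.1, and -2.07, adjusted p = 0.0191 in no.2), while Cd14, Cd68 and Itgam passed in neither. Of 3 tested adipocyte markers 3 were lower in no.1 and 2 in no.2, and of 3 tested Schwann cell and melanocyte markers 3 and 1. Of 5 tested smooth muscle and pericyte markers 3 and 0 were lower, and of 2 tested skeletal muscle markers 1 and 0. Over all genes 26.4% were lower in no.1 and 16.2% in no.2. With spike-in scaling the leukocyte markers had 3 higher and 0 lower in no.1, and 2 higher and 0 lower in no.2, so neither Csf1r call was kept. The adipocyte markers then had 1 higher and 1 lower in no.1. On that scale Schwann cell and melanocyte markers had 1 higher and 0 lower in no.1, smooth muscle and pericyte 4 and 0, and skeletal muscle 1 and 0. The part of these markers in the results was not tested. In bulk RNA, fewer cells of a type and less RNA per cell cannot be told apart.

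Every member that passed the test against control was lower, though Ptgis and the brightest Ptges probe turned higher relative to spike-in controls. In no.1, 4 of the 6 tested genes were lower (Ptgs1, Ptges, Ptgis and Ptgfr) and 0 were higher, where 47.8% of all 23058 genes were called, 26.4% lower and 21.4% higher. In no.2, 3 of the 6 were lower (Ptgs1, Ptges and Ptgfr) and 0 were higher, where 28.3% of all genes were called, 16.2% lower and 12.1% higher. The median log2 fold change of the 6 was -1.05 in no.1 and -1.0 in no.2, beside -0.12 and -0.10 over all genes. Both comparisons use the same 2 control arrays, and with 6 genes these counts are not set apart from the shares over all genes. With spike-in scaling the members split into 4 higher and 1 lower in no.1 and 2 higher and 1 lower in no.2, and with median scaling into 2 higher and 2 lower in no.1 and 0 higher and 3 lower in no.2. With the control arrays averaged into 1 sample, 2 genes were called in no.1 and 0 in no.2. At an unadjusted p under 0.05, 56.7% of all genes in no.1 and 44.9% in no.2 passed.

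**Figure D1:**
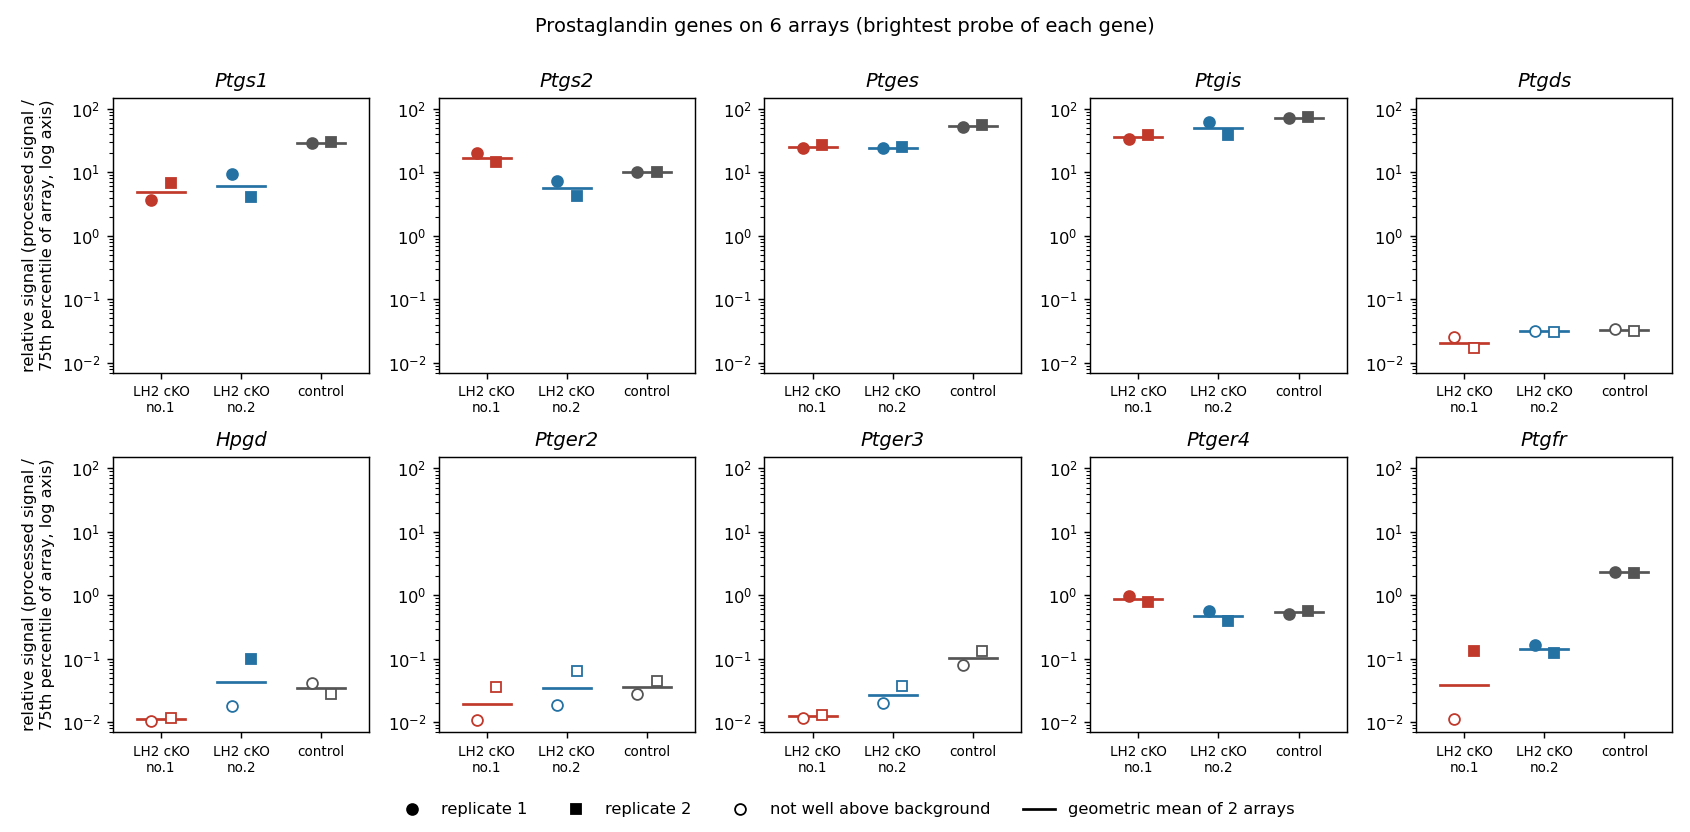
Relative signal (processed signal over the array's 75th percentile, log axis) of the brightest probe of each of the 10 genes, by group, with a point per array, circles for replicate 1, squares for replicate 2, and a line at the geometric mean of 2 arrays. Open symbols are not well above background. Ptgs1, Ptges and Ptgfr lie below control on all 4 arrays of no.1 and no.2, and Ptgs2 lies above control in no.1 and below it in no.2.

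Of the cyclooxygenase genes, Ptgs1 was lower in both treated groups and Ptgs2 passed the test in neither. Ptgs1, the constitutively expressed cyclooxygenase, read 3.65 and 6.75 in no.1, 9.28 and 4.10 in no.2, and 28.6 and 29.7 in control. Every treated array lay below both control arrays, and the ranges of no.1 and no.2 overlapped. In no.1, Ptgs1 was 5.87-fold lower (log2 fold change -2.55, 95% interval -3.68 to -1.43, adjusted p = 0.00802). In no.2 it was 4.72-fold lower (-2.24, interval -3.36 to -1.12, adjusted p = 0.0204). Relative to the spike-ins neither call was kept (-0.59, adjusted p = 0.171 in no.1, and -0.91, adjusted p = 0.0613 in no.2). Without no.1 replicate 1 the first call missed the threshold (adjusted p = 0.0508). The second missed it with the control arrays averaged (0.0773), without control replicate 1 (0.0688) or 2 (0.0776), and without no.2 replicate 2 (-1.65, adjusted p = 0.0705).

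Ptgs2 read 19.8 and 14.3 in no.1, 7.37 and 4.22 in no.2, and 10.0 and 10.2 in control. Both no.1 arrays lay above control and both no.2 arrays below it, with no overlap among the 3 groups. Neither difference from control passed the test: in no.1 the log2 fold change was 0.73 (interval -0.05 to 1.52, adjusted p = 0.105), and no.2 had -0.86 (interval -1.65 to -0.08, adjusted p = 0.0898). Within both treated groups replicate 1, whose file name carries 24 h, was higher than replicate 2, whose file name carries 48 h, and the part of time in this was not tested. The no.1 difference passed with median scaling (1.17, adjusted p = 0.0228), spike-in scaling (2.70, adjusted p = 0.000297) and normexp background correction (adjusted p = 0.0412). It also passed with only no.1 and control in the fit (adjusted p = 0.0478), which is the same fit as leaving out either no.2 replicate. The no.2 difference passed without no.2 replicate 1 (-1.27, adjusted p = 0.0368).

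The promoters of the 2 cyclooxygenases and of Ptges and Ptgfr are shown, as the 3 genes lower in both treated groups and the inducible cyclooxygenase set beside them. Each runs 5′ to 3′ along the gene, from 250 bases before 1 start site through its first 50 transcribed bases (RefSeq, GRCm38.p6). The annotated Ptgs1 gene begins upstream of its window, at 36216742, and Ptges upstream of its own, at 30931020. Those 2 windows thus lie inside the annotated genes, and no other start site was searched. Capitals mark matches to the motifs named after them.
Ptgs1 promoter, chr2:36230176-36230475, plus strand: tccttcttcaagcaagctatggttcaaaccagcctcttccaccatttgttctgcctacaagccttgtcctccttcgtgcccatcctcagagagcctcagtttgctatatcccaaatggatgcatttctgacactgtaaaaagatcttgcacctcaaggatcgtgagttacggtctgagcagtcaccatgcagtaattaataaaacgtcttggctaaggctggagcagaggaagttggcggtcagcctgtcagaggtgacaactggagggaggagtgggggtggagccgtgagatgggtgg
Ptgs2 promoter, chr1:150099781-150100080, plus strand: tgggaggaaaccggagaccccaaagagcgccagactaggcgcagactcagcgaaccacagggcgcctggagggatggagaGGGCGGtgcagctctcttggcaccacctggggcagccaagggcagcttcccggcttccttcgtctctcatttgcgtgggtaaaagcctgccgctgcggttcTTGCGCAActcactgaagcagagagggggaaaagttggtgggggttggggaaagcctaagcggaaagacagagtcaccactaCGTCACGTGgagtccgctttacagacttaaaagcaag
Ptges promoter, chr2:30903248-30903547, minus strand: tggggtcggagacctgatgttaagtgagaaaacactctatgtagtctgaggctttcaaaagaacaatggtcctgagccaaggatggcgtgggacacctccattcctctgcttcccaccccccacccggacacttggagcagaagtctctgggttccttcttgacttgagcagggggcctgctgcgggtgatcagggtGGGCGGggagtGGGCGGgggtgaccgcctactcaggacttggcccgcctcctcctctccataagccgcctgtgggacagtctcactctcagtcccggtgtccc
Ptgfr promoter, chr3:151837479-151837778, minus strand: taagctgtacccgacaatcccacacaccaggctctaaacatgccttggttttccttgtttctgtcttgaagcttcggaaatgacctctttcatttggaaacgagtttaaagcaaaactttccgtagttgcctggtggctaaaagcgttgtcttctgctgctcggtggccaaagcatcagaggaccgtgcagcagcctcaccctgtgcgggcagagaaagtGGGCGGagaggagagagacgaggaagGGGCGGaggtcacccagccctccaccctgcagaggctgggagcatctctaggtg

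Motifs were searched on both strands, with positions counted from 0 at the first transcribed base. The Ptgs2 window held the GC box GGGCGG at -170 to -165, the C/EBP motif TTGCNNAA at -69 to -62 (read on both strands), and the CRE core CGTCA at 13 to 17, which overlaps the E-box CACGTG at 16 to 21. Of all 32851 promoters of this length, 35.7% held the GC box, 10.8% the C/EBP motif, 20.8% the CRE core and 7.15% the E-box. The Ptges window held GC boxes at -53 to -48 and -42 to -37, and the Ptgfr window at -30 to -25 and -4 to 1. The Ptgs1 window matched none of the motifs searched, which also took in TATAAA (13.6% of all promoters), an NF-kB motif (8.46%) and the estrogen response element, AGGTCA and TGACCT with 3 bases between (0.0213%). Of the 9 genes with a promoter in the table (Ptgis had none), 6 held a GC box, 2 the C/EBP motif and 0 the estrogen response element. GC content was 50.7% for Ptgs1, 59.3% for Ptgs2, 60% for Ptges and 54.3% for Ptgfr, beside a median of 52.7% over all promoters.

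Among the terminal synthases, Ptges and Ptgis were measured and Ptgds was not. Ptges encodes microsomal prostaglandin E synthase 1, the inducible partner of Ptgs2 in making prostaglandin E2. It had 3 probes, all well above background on all 6 arrays. The brightest, A_55_P1974193, read 23.9 and 26.5 in no.1, 23.9 and 24.9 in no.2, and 50.9 and 56.6 in control. All treated arrays lay below control and within a narrow range of each other. The gene was 2.13-fold lower in no.1 (log2 fold change -1.09, interval -1.56 to -0.63, adjusted p = 0.00745) and 2.20-fold lower in no.2 (-1.14, interval -1.60 to -0.67, adjusted p = 0.0127). Relative to the spike-ins both signs turned (0.87, adjusted p = 0.0344 in no.1, and 0.19, adjusted p = 0.598 in no.2). The call in no.1 missed the threshold with median scaling (adjusted p = 0.0587), with the control arrays averaged (0.0540) and without control replicate 2 (0.0635). In no.2 it missed with the control arrays averaged (0.0845) and without control replicate 1 (0.0672) or 2 (0.0942).

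The other Ptges probes gave a larger difference. Probe A_51_P312327 read 2.65 and 3.31 in no.1, 4.32 and 2.84 in no.2, and 32.4 and 34.1 in control. Probe A_55_P1974189 read 0.636 and 0.908 in no.1, 1.02 and 0.767 in no.2, and 8.62 and 9.63 in control. On both, treated and control arrays were far apart and no.1 and no.2 overlapped. In a fit over all 29679 tested probes, of which 46.6% were called in no.1 and 26.7% in no.2, A_51_P312327 had a log2 fold change of -3.49 in no.1 (interval -4.14 to -2.84, adjusted p = 0.00119) and -3.25 in no.2 (interval -3.90 to -2.60, adjusted p = 0.00225). Probe A_55_P1974189 had -3.58 in no.1 (interval -4.23 to -2.94, adjusted p = 0.00108) and -3.36 in no.2 (interval -4.01 to -2.72, adjusted p = 0.00198). In the same fit the interval of the brightest probe was -1.56 to -0.62 in no.1 and -1.61 to -0.67 in no.2, so its interval met neither of the others. The sources used here do not say which part of the transcript each probe reads.

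**Figure D2:**
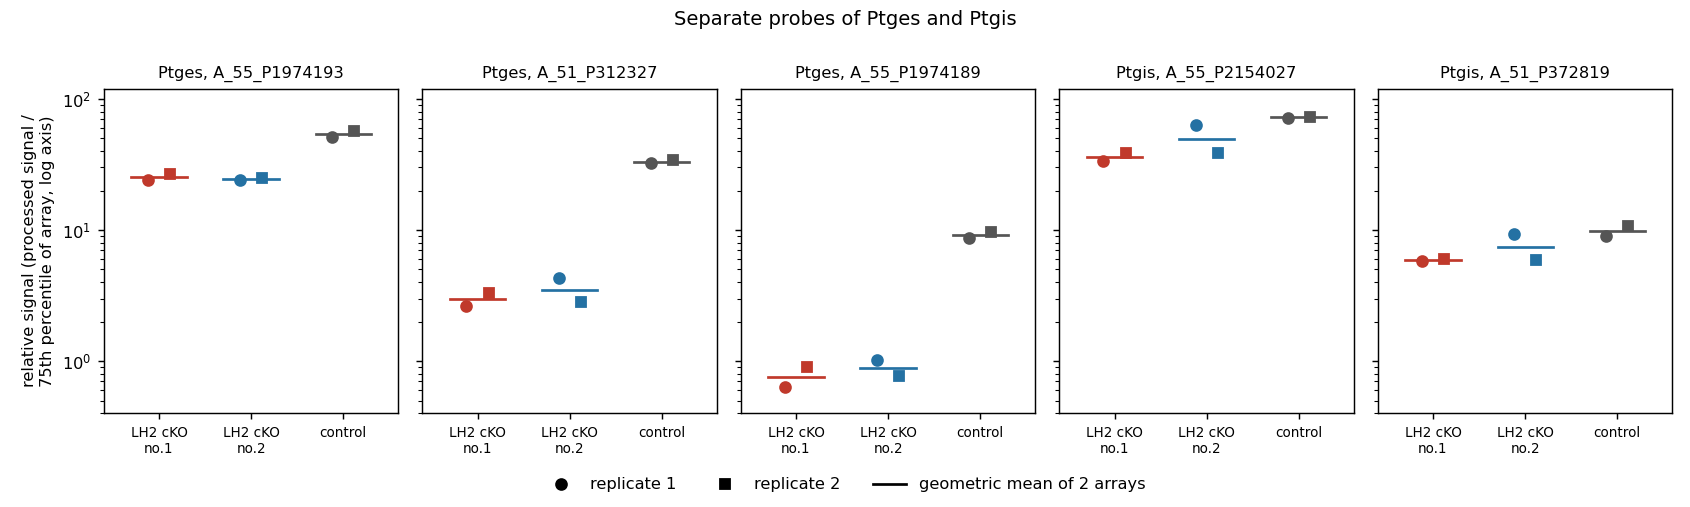
Relative signal (log axis) of the 3 Ptges probes and the 2 Ptgis probes by group, with a point per array and a line at the geometric mean of 2 arrays. On Ptges probes A_51_P312327 and A_55_P1974189 the no.1 and no.2 arrays lie about a factor of 10 below control (9.51 to 11.99-fold by the fit), against 2.13 and 2.20-fold on the brightest probe.

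Ptgis, prostacyclin synthase, had 2 probes. The brighter, A_55_P2154027, read 33.7 and 38.6 in no.1, 62.9 and 38.7 in no.2, and 71.2 and 73.2 in control. All treated arrays were below control, and no.2 replicate 2 sat next to the no.1 arrays while replicate 1 sat nearer to control. Ptgis was 2.0-fold lower in no.1 (log2 fold change -1.0, interval -1.67 to -0.33, adjusted p = 0.0275) and did not pass in no.2 (-0.55, interval -1.22 to 0.12, adjusted p = 0.172). Relative to the spike-ins it was instead higher in both (0.96, adjusted p = 0.00999, and 0.78, adjusted p = 0.0304). The second probe, A_51_P372819, read 5.82 and 6.03 in no.1, 9.35 and 5.92 in no.2, and 9.08 and 10.7 in control. It passed in neither (-0.74, adjusted p = 0.0655 in no.1, and -0.41, adjusted p = 0.286 in no.2). The no.1 call on the brighter probe was lost on averaging the control arrays (adjusted p = 0.111), median scaling (0.134), quantile normalization (0.0654) or use of the authors' value table (0.0666), without control replicate 1 (0.103) or 2 (0.115), and without no.1 replicate 1 (0.118) or 2 (0.0672). The no.2 difference passed without no.2 replicate 1 (-0.90, adjusted p = 0.0383).

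Ptgds, Hpgd, Ptger2 and Ptger3 stayed at background and were not tested. Their 5 probes had processed signals between 0.951 and 5.63, where the dimmest probe well above background on an array read 4.5 to 4.92. Ptgds, lipocalin-type prostaglandin D synthase, was spotted 10 times and averaged 2.45 and 1.43 in no.1, 1.73 and 1.76 in no.2, and 1.15 and 1.05 in control. Hpgd passed the background flag on no.2 replicate 2 alone, at 5.63, and read 0.951 to 1.43 on the other 5 arrays. Ptger2, the EP2 receptor, and both probes of Ptger3, the EP3 receptor, passed on none. No level or difference can be read from these 4 genes.

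Of the receptors, Ptgfr and Ptger4 were measured. Ptgfr, the prostaglandin F receptor FP, had processed signals of 1.1 and 11.3 in no.1, 8.95 and 6.93 in no.2, and 80.8 and 75.1 in control. As relative signals these are 0.0114 and 0.132 in no.1, 0.163 and 0.122 in no.2, and 2.37 and 2.23 in control. The treated arrays lay well below control, and no.1 replicate 1 was not above background, so 1 of 2 no.1 arrays measured the gene. Ptgfr was 16.3-fold lower in no.2 (log2 fold change -4.03, interval -6.56 to -1.5, adjusted p = 0.0358). In no.1 the log2 fold change was -5.88 (interval -8.41 to -3.35, adjusted p = 0.00766), and -4.12 without replicate 1 (adjusted p = 0.00924). Without replicate 2 the no.1 array left is not above background, so no value is given. With normexp background correction, which adds an offset of 50, the differences were -1.79 for no.1 (adjusted p = 0.000995) and -1.70 for no.2 (adjusted p = 0.00161). The no.2 call was lost without no.2 replicate 1 (adjusted p = 0.104) or 2 (0.153), without control replicate 1 (0.0994) or 2 (0.101), with the control arrays averaged (0.105), and without the filter on dim probes (0.0519).

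Ptger4, the EP4 receptor, which raises cyclic AMP, was measured on probe A_55_P2747136. It read 0.962 and 0.790 in no.1, 0.570 and 0.392 in no.2, and 0.513 and 0.571 in control. Both no.1 arrays lay above all others, and no.2 overlapped control. Neither difference from control passed: the log2 fold change was 0.69 in no.1 (interval 0.07 to 1.31, adjusted p = 0.0667) and -0.20 in no.2 (interval -0.82 to 0.43, adjusted p = 0.578). The no.1 difference passed with median scaling (adjusted p = 0.0154), with a filter for signal above background on all arrays (0.0439) and with only no.1 and control in the fit (0.0361). Leaving out either no.2 replicate is that same fit. With spike-in scaling the differences in no.1 (2.65, adjusted p = 0.000276) and no.2 (1.13, adjusted p = 0.00980) both passed. The second probe, A_51_P207988, was above background on no.1 replicate 1 alone, with a processed signal of 12.96.

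The comparison named in the series' design sets no.1 against no.2, tamoxifen-containing against tamoxifen-free medium. Here 0 of the 6 tested genes passed, as did 0 of all 23058 genes (0%), while 16.6% of all genes had an unadjusted p under 0.05. The smallest adjusted p over all genes was 0.206. Ptgs2 was 3.03-fold higher in no.1 (log2 fold change 1.60, SE 0.32, interval 0.81 to 2.38, unadjusted p = 0.00247, adjusted p = 0.282), in 4 of 4 pairs of arrays. Its adjusted p was 0.0422 without the filter on dim probes and 0.0735 to 0.752 in the other alternatives. Ptger4 was 1.84-fold higher in no.1 (0.88, SE 0.25, interval 0.26 to 1.5, adjusted p = 0.282), also in 4 of 4 pairs. The differences were -0.31 for Ptgs1 (interval -1.44 to 0.81), 0.05 for Ptges (-0.42 to 0.51), -0.45 for Ptgis (-1.13 to 0.22) and -1.86 for Ptgfr (-4.39 to 0.68).

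In no.1 against control, both arrays of a group lay clear of both arrays of the other for all 6 tested genes, 2 higher and 4 lower, where 36.7% of all genes lay so on the higher side and 44.7% on the lower. In no.2 against control this held for 0 higher and 5 lower (33.2% and 41.3% of all genes), and in no.1 against no.2 for 2 higher and 1 lower (22.5% and 25.4%). These counts are not set apart from the shares over all genes. By their mean levels, Ptgs2 ran no.1, control, no.2 from high to low, and Ptger4 was highest in no.1, with no difference between groups past the test for either gene. Control was highest for Ptgs1, Ptges, Ptgis and Ptgfr, and for none of these did the difference between no.1 and no.2 pass. With spike-in scaling control was instead lowest for Ptgs2, Ptger4, Ptgis and the brightest Ptges probe.

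The direction of several differences rests on how arrays were scaled. Relative to the spike-in controls (7 probes), the 75th percentile was 0.220 and 0.215 in no.1, 0.112 and 0.174 in no.2, and 0.0558 and 0.0554 in control. Spike-in scaling therefore moved the median over all genes to 1.85 in no.1 and 1.23 in no.2, with 18977 genes higher and 406 lower in no.1 and 15233 higher and 505 lower in no.2. On that scale Ptgfr stayed lower, at -3.92 for no.1 (adjusted p = 0.00742) and -2.70 for no.2 (adjusted p = 0.0419). Ptges probes A_51_P312327 (-1.53 for no.1, adjusted p = 0.00140, and -1.92 for no.2, adjusted p = 0.00201) and A_55_P1974189 (-1.62, adjusted p = 0.00161, and -2.03, adjusted p = 0.00214) also stayed lower. Ptgs1 was below 0 but did not pass (-0.59, adjusted p = 0.171 in no.1, and -0.91, adjusted p = 0.0613 in no.2). The brightest Ptges probe turned to 0.87 for no.1 (adjusted p = 0.0344) and 0.19 for no.2 (adjusted p = 0.598), and Ptgis to 0.96 (adjusted p = 0.00999 in no.1) and 0.78 (adjusted p = 0.0304 in no.2). Ptgs2 stood at 2.70 for no.1 (adjusted p = 0.000297) and 0.47 for no.2 (adjusted p = 0.181), and Ptger4 2.65 (adjusted p = 0.000276) and 1.13 (adjusted p = 0.00980). With median scaling the split over all genes was 7564 higher and 3295 lower in no.1 and 4839 higher and 2175 lower in no.2, where the 75th percentile gave 4940 and 6080, and 2790 and 3727.

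**Figure D3:**
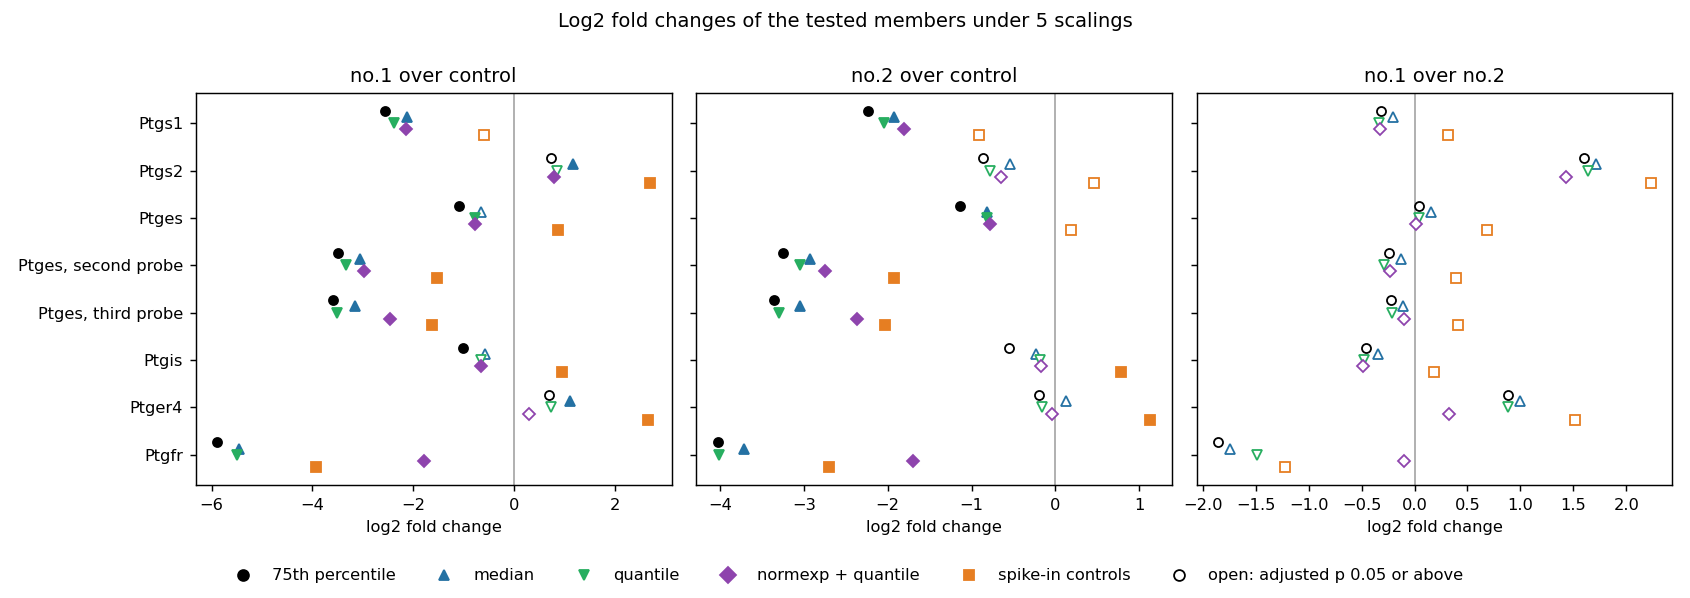
Log2 fold changes (horizontal axes) of the tested genes and the other 2 Ptges probes in no.1 over control, no.2 over control and no.1 over no.2, each under 5 scalings, with filled symbols for an adjusted p under 0.05. Ptgfr and those 2 Ptges probes stay below 0 against control under all 5, while Ptgis and the brightest Ptges probe turn above 0 with the spike-in scaling.

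Some genes outside the pathway rose and fell with members over the 6 arrays, though not always by as much. By Pearson r over 6 arrays, among 12058 named genes (12059 for Ptgfr) above background on all of them, the closest to Ptgs1 were Ttyh2 and Usp2 (r = 0.999 for each) and the closest to Ptgs2 were Septin7 (0.997) and Inhba (0.992). Those closest to Ptges were Steap1 (0.999) and Myo1h (0.997), and to Ptgfr Snhg10 and Xdh (0.999 for each). The 6 points form 3 groups and share 1 slide, so these values are a description. Pearson r does not compare sizes. Beside log2 fold changes of -5.88 in no.1 and -4.03 in no.2 for Ptgfr, Snhg10 had -0.99 and -0.68, and Xdh -4.47 and -2.98. Every r with Ptgfr includes no.1 replicate 1, where Ptgfr was not above background. Among the members, Ptgs2 was closest to Ptger4 (r = 0.941), Ptgs1 to Ptgfr (0.940), and Ptgs1 with Ptgs2 gave -0.005.

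The wider pathway was read from 7 lists with 76 entries, of which 55 were tested. In no.1, 12 were higher (21.8%) and 17 lower (30.9%), beside 21.4% and 26.4% of all genes. In no.2, 7 were higher (12.7%) and 10 lower (18.2%), beside 12.1% and 16.2%, and in no.1 against no.2 0 passed. Those shares are close to the shares over all genes. The counts of each list below stand beside the same shares over all genes, and with so few genes are not set apart from them. With the control arrays averaged the counts were 5 higher and 8 lower in no.1 and 2 and 3 in no.2. Spike-in scaling gave 41 higher and 2 lower in no.1, and 34 higher and 2 lower in no.2.

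Of 9 tested genes of arachidonate release and its control, 2 were higher and 5 lower in no.1, and 0 and 3 in no.2. Pla2g4a, the cytosolic phospholipase A2, was higher in no.1 (log2 fold change 0.77, adjusted p = 0.0272), with 0.11 in no.2, as was Anxa1, annexin A1, an inhibitor of phospholipase A2 (1.24, adjusted p = 0.0122, with 0.34 in no.2). Mgll, which frees arachidonate from an endocannabinoid, was lower in no.1 (-2.50, adjusted p = 0.00379), but not past the test relative to the spike-ins (-0.54, adjusted p = 0.207). In no.2 it was not above background on either array and was at least 8.32-fold lower (adjusted p = 0.00391). Its log2 fold change in no.2 was -1.87 relative to the spike-ins (adjusted p = 0.00541), still lower but short of that bound. Daglb, which makes that endocannabinoid, was lower in both (-1.11, adjusted p = 0.0106, and -0.92, adjusted p = 0.0295). Relative to the spike-ins it was instead higher in no.1 (0.86, adjusted p = 0.0175), with 0.40 in no.2 (adjusted p = 0.196). The secreted phospholipase Pla2g2e was at least 18.2-fold lower in no.1 (adjusted p = 0.00511). With spike-in scaling it had -3.25 in no.1 (adjusted p = 0.00821), also lower but short of its bound. The bounds of Mgll and Pla2g2e thus hold with the percentile scaling alone. In no.2 Pla2g2e was lower (-3.10, adjusted p = 0.0333), where 1 of 2 arrays was above background. That call was lost relative to the spike-ins (-1.77, adjusted p = 0.0913).

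Of 6 other synthase genes, 1 was higher and 3 lower in no.1, and 0 and 2 in no.2. Ptges2, which encodes the membrane-associated prostaglandin E synthase 2, read 4.78 and 4.27 in no.1, 7.07 and 3.76 in no.2, and 15.7 and 15.5 in control. It was lower in both (-1.79, adjusted p = 0.00798, and -1.59, adjusted p = 0.0194), but 0.18 and -0.27 relative to the spike-ins. Prxl2b, a prostaglandin F synthase, read 7.78 and 10.8 in no.1, 14.6 and 11.3 in no.2, and 42.9 and 43.7 in control (-2.24, adjusted p = 0.00287, and -1.75, adjusted p = 0.00883), with -0.28 and -0.42 relative to the spike-ins. Cbr1, a carbonyl reductase of prostaglandin E2, was lower in no.1 (-1.16, adjusted p = 0.00818), but 0.80 relative to the spike-ins. Ptges3, cytosolic prostaglandin E synthase and a co-chaperone, was higher in no.1 (1.09, adjusted p = 0.0171), with 0.55 in no.2.

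Of 4 other receptor genes, 1 was higher and 3 lower in no.1, and 1 and 2 in no.2. Tbxa2r, the thromboxane receptor, read 0.0689 and 0.191 in no.1, 0.266 and 1.77 in no.2, and 6.37 and 7.47 in control. It was lower in both (-5.91, adjusted p = 0.00550, and -3.33, adjusted p = 0.0417). Ptgir, the prostacyclin receptor, was lower in no.1 (-4.04, adjusted p = 0.0158), with 1 of 2 arrays above background, and had -2.17 in no.2. Ptger1, the EP1 receptor, was lower in both (-2.42, adjusted p = 0.0151, and -2.11, adjusted p = 0.0364), with 1 of 2 arrays above background in each. Ptger1 entered the test through control alone, so its p-values rest in part on signals at background. Relative to the spike-ins all 3 stayed below 0, and of these calls that of Tbxa2r in no.1 alone was kept (-3.95, adjusted p = 0.00860). Ptgfrn, a membrane protein that binds the F receptor and inhibits its ligand binding, read 6.83 and 7.19 in no.1, 7.14 and 7.75 in no.2, and 2.15 and 2.32 in control. It was higher in both (1.65, adjusted p = 0.00295, and 1.74, adjusted p = 0.00438).

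Of 5 genes for transport and further breakdown, 1 was lower in each group. Slco2a1, the prostaglandin transporter, read 9.67 and 6.55 in no.1, 7.54 and 2.22 in no.2, and 55.4 and 56.2 in control. It was lower in both (-2.81, adjusted p = 0.0107, and -3.77, adjusted p = 0.00971), but relative to the spike-ins the no.1 call was lost (-0.85, adjusted p = 0.0989) while no.2 had -2.44 (adjusted p = 0.00382). In the lipoxygenase branch, of 5 tested, 1 was higher and 2 were lower in each group. Alox5 was not above background in control, so it entered the test through the treated groups alone. It was at least 3.06-fold higher in no.1 (adjusted p = 0.00781) and at least 3.21-fold higher in no.2 (adjusted p = 0.0139). These p-values rest in part on signals at background. Of its partners in leukotriene synthesis, Ltc4s and Alox5ap were lower in both. Ltc4s had -2.42 (adjusted p = 0.00246) and -1.85 (adjusted p = 0.00794), and Alox5ap -1.99 (adjusted p = 0.00608) and -1.5 (adjusted p = 0.0222), close to background. Both stood nearer to 0 relative to the spike-ins (-0.45 and -0.52 for Ltc4s, -0.03 and -0.17 for Alox5ap). Lta4h, of the same synthesis, passed in neither (0.16 in no.1 and 0.07 in no.2). Relative to the spike-ins Lta4h was higher in both (2.12, adjusted p = 0.000481, and 1.40, adjusted p = 0.00536).

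Of 12 tested inducers and mRNA regulators of Ptgs2, 2 were higher and 3 lower in no.1, and 2 and 0 in no.2. Elavl1, the RNA-stabilising protein HuR, was higher in both (1.55, adjusted p = 0.00571, and 1.14, adjusted p = 0.0222), as was Zfp36l1, which promotes mRNA decay (1.06, adjusted p = 0.00929, and 0.76, adjusted p = 0.0381). Cebpb (-1.91, adjusted p = 0.0139) and Cebpd (-1.22, adjusted p = 0.0396), transcription factors that bind C/EBP motifs, and the TNF receptor Tnfrsf1a (-1.08, adjusted p = 0.0106) were lower in no.1. Relative to the spike-ins these 3 were 0.06 (adjusted p = 0.899), 0.74 (adjusted p = 0.130) and 0.88 (adjusted p = 0.0223), so Tnfrsf1a passed as higher. Of 14 cyclic AMP and CREB response genes, 5 were higher and 0 lower in no.1, and 3 and 0 in no.2, with medians of 0.53 and 0.43. Over all genes 21.4% were higher in no.1 and 12.1% in no.2. Nr4a3 (-1.17), Atf3 (-0.84), Per1 (-0.58), Dusp1 (-0.45) and Sik1 (-0.42) lay below 0 in no.1, and also in no.2. Relative to the spike-ins they lay above 0 in both. The part of cyclic AMP in these values was not tested. Nr4a2, a nuclear receptor induced by cyclic AMP, read 4.8 and 3.75 in no.1, 3.55 and 1.5 in no.2, and 0.807 and 0.654 in control (2.55, adjusted p = 0.00652, and 1.67, adjusted p = 0.0337). Fos was higher by 1.79 (adjusted p = 0.00663) and 1.14 (adjusted p = 0.0368), and the phosphodiesterase Pde4b by 1.28 (adjusted p = 0.0106) and 1.20 (adjusted p = 0.0221). Creb1 was higher in no.1 (1.11, adjusted p = 0.00860).

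**Figure D4:**
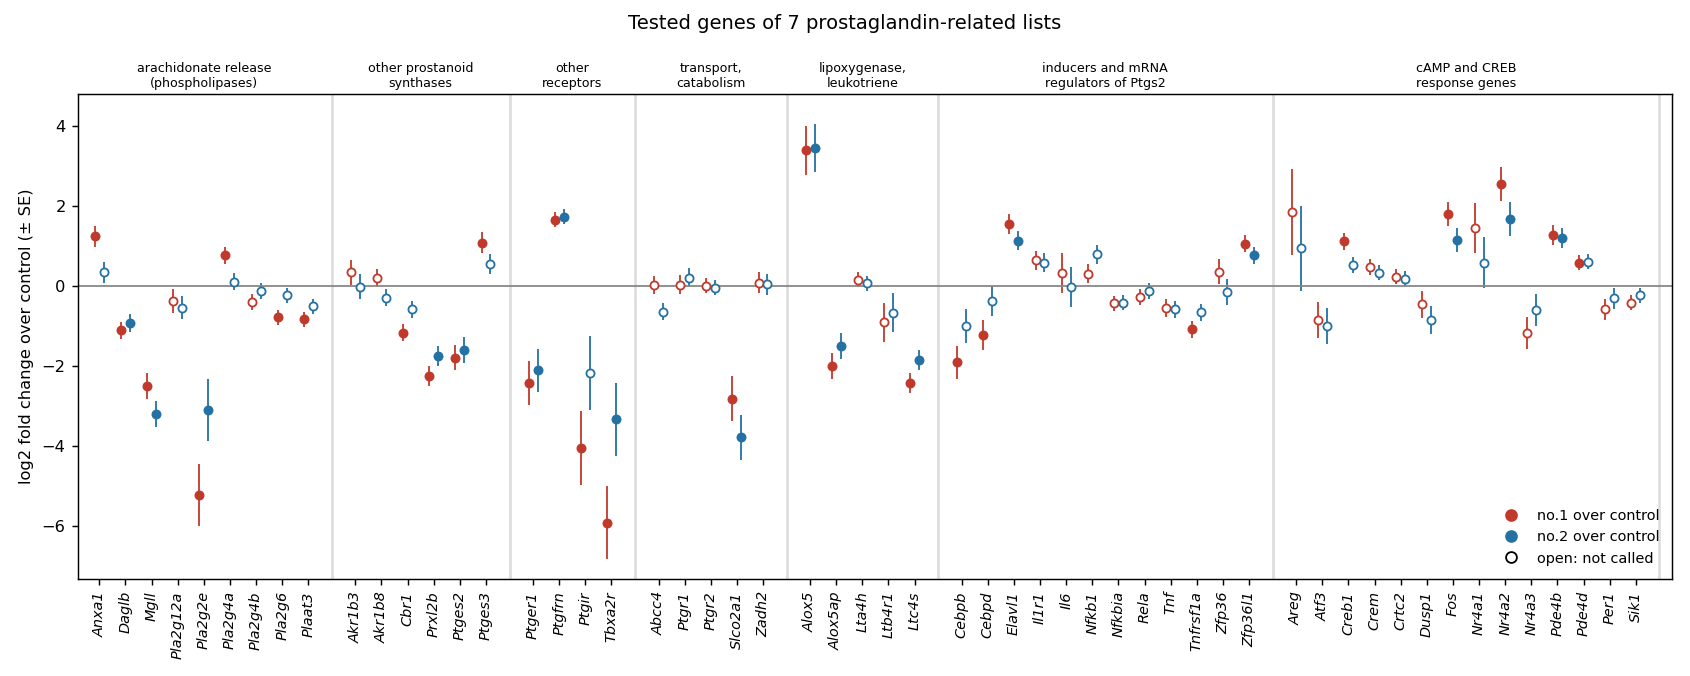
Log2 fold change over control, with its SE as a bar, of the 55 tested genes of the 7 lists, in no.1 and no.2, filled where the adjusted p was under 0.05. Tbxa2r, Pla2g2e and Ptgir lie lowest in no.1 and Slco2a1 (-3.77) in no.2, while Ptgfrn, Alox5 and the cyclic AMP response genes Nr4a2 and Fos lie above 0 in both groups. Nr4a3, Atf3, Per1, Dusp1 and Sik1, of the same cyclic AMP list, lie below 0 in both.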

How the data were processed

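Total RNA of 6 samples was hybridised with Cy3 to Agilent 1-colour arrays, per the labels' protocols. The deposited scanner files hold intensity values from Feature Extraction 12.1.1.1, per the file headers (9.5.1.1 per the submitters' processing notes). The processed signal is background-subtracted, with no normalization across arrays. The slide, 1 for all arrays, held control in another row than no.1 and no.2, so row and treatment cannot be told apart. The deposited value table, also intensity, has a median of 5.16 and quartiles of 1.15 and 60.1 on each array, and follows the processed signal (r of 0.9978 to 0.9999 on the log2 scale). Neither headers nor labels say how the authors normalized it.

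Processed signals were put on the log2 scale and spots of a probe were averaged, leaving out outlier spots where the probe had others. Each array's 75th percentile over probes was then subtracted. Accessions were matched to RefSeq symbols (32994 of 56605 probes, 58.3%), and each gene was read from its brightest probe. A probe counts as well above background where over 0.5 of its spots carry that flag. Groups were compared with limma 3.58.1 in R 4.3.3 (3 residual degrees of freedom), with Benjamini-Hochberg adjustment over 23058 genes and a threshold of 0.05. Every adjusted p is limma's, and the fit was tested on simulated data. Bounds ("at least") set the bright group's mean against the lowest signals above background, with the 75th percentile scaling alone. An adjusted p beside a bound is that of the fitted log2 fold change. Alternatives were other scalings, background corrections, filters, probe rules and sample sets. The files have no mean signal column, so normexp used the median signal. The members and lists were chosen with earlier results of these data known. Genes named from a list are up to 3 called in each direction and contrast, by lowest p. Columns without a sample numbered 0.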

Additional observations from a re-analysis of the deposited data

Results flagged for a closer look

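Ptgs2 lay on opposite sides of control in the treated groups, except with spike-in scaling, where both lay above control (2.70 in no.1 and 0.47 in no.2). With the 75th percentile, its log2 fold change over control was 0.73 in no.1, where both arrays lay above both control arrays, and -0.86 in no.2, where both lay below. The difference between no.1 and no.2 was 1.60 (SE 0.32), and limma's adjusted p for it was 0.282, so it did not pass over all genes. Of all tested genes, 22.5% had both no.1 arrays above both no.2 arrays.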

How the results depend on the processing

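Over 17 alternatives, 353 single-gene and single-probe values kept their direction and side of the threshold, 18 gained a call, 27 lost one and 22 changed sign. Some alternatives repeat each other. Leaving out either array of the group not compared gives the same fit as using only the 2 groups compared. These totals are therefore not independent checks. The number of genes called in no.1 against control was 11020, and 19383 with spike-in scaling, 24873 without the filter on dim probes and 4845 with the control arrays averaged. Leaving out an array gave 4998 to 12053, and the 4 members called became 2 with the controls averaged and 2 to 6 leaving out an array. In no.2 against control the 6517 genes became 15738 with spike-in scaling, 16476 without the filter, 1246 with the controls averaged and 1298 to 6360 leaving out an array. The 3 members became 0 with the controls averaged and 0 to 4 leaving out an array. Between no.1 and no.2 the 0 genes became 8296, and the 0 members 1, without the filter, and 0 to 117 genes and 0 to 1 members leaving out an array. Without the filter 45616 genes are tested, most of the added ones at a surrogate signal.

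Signs turned with spike-in scaling in no.1 for Ptges (0.87), Ptgis (0.96) and Ptgis probe A_51_P372819 (1.23). In no.2 they turned for Ptgs2 (0.47), Ptges (0.19), Ptgis (0.78), Ptger4 (1.13) and that Ptgis probe (0.92), and between no.1 and no.2 for Ptgs1 (0.32), Ptgis (0.18), that Ptgis probe (0.31) and Ptges probes A_51_P312327 (0.39) and A_55_P1974189 (0.41). Ptger4 in no.2 was 0.12 with median scaling and -0.46 to 0.075 leaving out an array. Between no.1 and no.2, Ptges was -0.14 as the mean of its probes. Leaving out an array there gave -0.031 to 0.12 for Ptges, -0.90 to 0.27 for Ptgs1, -0.48 to 0.035 for A_55_P1974189, -0.54 to 0.062 for A_51_P312327 and -0.66 to 0.0010 for A_51_P372819. The cause of these turns was not tested.

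Only 2 replicate numbers are shared and the labels do not say that they pair arrays. Deviations from the group means correlated at 0.165 between no.1 and no.2, -0.035 between no.1 and control and -0.017 between no.2 and control. With the replicate block, 10572, 6055 and 0 genes and 4, 3 and 0 members were called in the 3 comparisons. Signal over background limits what can be read of Ptgds, Hpgd, Ptger2, Ptger3 and the second Ptger4 probe.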
